A study of Mus musculus with 6 samples.

Results

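The 9 genes described here encode receptors, an adaptor, an adhesion molecule and sugar-adding enzymes through which young neurons are known to be guided to and within the olfactory bulb. They were taken by name, as a fixed list of 9 of the 18560 genes in the count table, and all 9 were present. They are the prokineticin receptor Prokr2, the neuregulin receptor Erbb4, the chemokine receptor Cxcr4, the neural cell adhesion molecule Ncam1, the polysialyltransferases St8sia2 and St8sia4, the reelin receptors Vldlr and Lrp8, and Dab1, the adaptor that carries the reelin signal inside the cell. Each was followed over 40 clusters of cells, 18 of neurons and 22 of other cells, as named in the annotation that the study deposited. Going by cell counts, some nonneuronal clusters are numbered otherwise in the study's supplement. The olfactory ensheathing cluster OEC4 here, with 3436 cells, has the count given there for OEC3. The astrocyte cluster Astro2 here, with 336 cells, has the count given there for Astro3.

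Single cells of the dissociated mouse olfactory bulb were captured in droplets, and their transcripts were counted with unique molecular identifiers (UMIs). The study asked how the cells of the bulb, and adult-born interneurons in particular, differ in type and with olfactory experience. There were 2 libraries in each of 3 groups of C57BL/6NJ mice. Control mice are labelled as having had no manipulation, and most of the study's text calls them naive, but 1 passage names the open side of occluded mice as the control. Naris-occluded mice had 1 nostril plugged to deprive the bulb on that side of odour. Trained mice were deprived of water and learned to discriminate odours for a water reward. The study states no water deprivation for the other groups, so training and water deprivation cannot be told apart here. The manipulations lasted 6 weeks, the mice were 14 weeks old, and each library pooled tissue of 3 mice, males in replicate 1 and females in replicate 2. The dissection took in some olfactory epithelium, and no cells were sorted.

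The libraries held between 11841160 and 17065083 UMIs in annotated cells, with a median of 1028 to 1723.5 UMIs per cell. Cluster n04-Immature, the youngest of the adult-born neurons, held 3910 cells, between 429 and 939 per library, with medians of 1476 to 2080 UMIs. All 8 markers of immature neurons listed for the check of this label, Dcx, Sox11, Sox4, Cd24a, Dlx2, Tubb3, Igfbpl1 and Stmn1, had their highest mean level in n04-Immature. Xist and 4 Y-linked genes matched the sex given for each of the 6 libraries. Barcode sequences were shared by 65 to 144 cells between any 2 libraries, and 2956 cells carried a barcode sequence that was present in more than 1 library.

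As background, neuroblasts of the subventricular zone travel along the rostral migratory stream in chains and turn outward once they reach the bulb. Prokineticin 2 made in the bulb draws them through Prokr2, neuregulins act on Erbb4, and the chemokine Cxcl12 acts on Cxcr4. Chains of polysialic acid on Ncam1 loosen contacts between migrating cells, and reelin, a secreted protein read by Vldlr and Lrp8 and relayed by phosphorylated Dab1, lets cells leave the chains.

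The 9 genes lie on 6 chromosomes of the mouse assembly GRCm38.p6, the release that corresponds to the mm10 build named in the submitters' processing notes. Prokr2 spans chr2:132369705-132385502, St8sia2 chr7:73939119-74013727 and Ncam1 chr9:49502129-49799393. Cxcr4 (chr1:128588199-128592299), St8sia4 (chr1:95587682-95667717) and Erbb4 (chr1:68031884-69108576) share a chromosome, as do Lrp8 (chr4:107802200-107876840) and Dab1 (chr4:103619500-104744844), and Vldlr lies at chr19:27216480-27254231. Prokr2 and St8sia2 were the 2 of the 9 with their highest level in n04-Immature and little RNA elsewhere, and the stretch from 250 to 56 bases before a RefSeq start site, outside the annotated gene, is shown for both. Capitals mark a match on either strand to 1 of 5 searched motifs, the E-box CAGCTG, the Sox and TCF type motif ACAAAG, the homeodomain type motif TAATTA, another homeodomain type motif, TAATTG, and the GC box GGGCGG.
Prokr2 (chr2:132385503-132385697, minus strand): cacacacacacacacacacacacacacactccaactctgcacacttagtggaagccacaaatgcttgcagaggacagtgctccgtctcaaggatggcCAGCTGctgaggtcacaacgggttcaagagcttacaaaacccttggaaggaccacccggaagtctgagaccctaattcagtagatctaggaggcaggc
St8sia2 (chr7:74013738-74013932, minus strand): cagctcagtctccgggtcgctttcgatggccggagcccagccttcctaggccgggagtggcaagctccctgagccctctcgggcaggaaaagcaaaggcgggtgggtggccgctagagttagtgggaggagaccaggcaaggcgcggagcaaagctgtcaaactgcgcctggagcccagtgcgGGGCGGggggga

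The Prokr2 stretch held 1 match, an E-box, and the St8sia2 stretch held 1 match, a GC box, so the 2 shared none of the searched motifs. CAGCTG was present in 10.0% of the same window of all 32851 RefSeq promoters and GGGCGG in 23.8%. The Sox and TCF type motif and the homeodomain type motifs, absent from both stretches, were present in 13.3%, 4.13% and 5.95%, in the order given above. The St8sia2 stretch had 13 CG dinucleotides in its 195 bases and the Prokr2 stretch 3, where the median over all promoters was 4. Promoters were found for 8 of the 9 genes, all but Ncam1.

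The levels below are UMIs of a gene per 1000000 UMIs (CPM), summed over the cells of a cluster in each library and given as the mean ± SD over the 6 libraries. The clusters were made by the study from these same cells and genes, so the differences between clusters are a description and carry no test. Of the 18 neuronal clusters, n04-Immature had the highest mean for 4 of the 9 genes, Prokr2, St8sia2, Ncam1 and Lrp8. How many of all genes had their highest neuronal mean there was not counted, and the 4 became 3 under some alternatives. For Prokr2, St8sia2 and Lrp8 this cluster was also the highest of all 40. For Lrp8 it was above the next cluster, n07-GC-2, in only 3 of 6 libraries. In n04-Immature lay 83.6% of the Prokr2 UMIs in clustered cells, 85.2% of those of St8sia2 and 19.7% of those of Lrp8, against 7.88% of the UMIs of all genes. The other genes peaked in cells of other kinds, Cxcr4 and Ncam1 in olfactory ensheathing cells, St8sia4 in endothelial cells, Vldlr in a mitral and tufted cell cluster, Erbb4 in a periglomerular cluster and Dab1 in an astrocyte cluster.

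**Figure D1:**
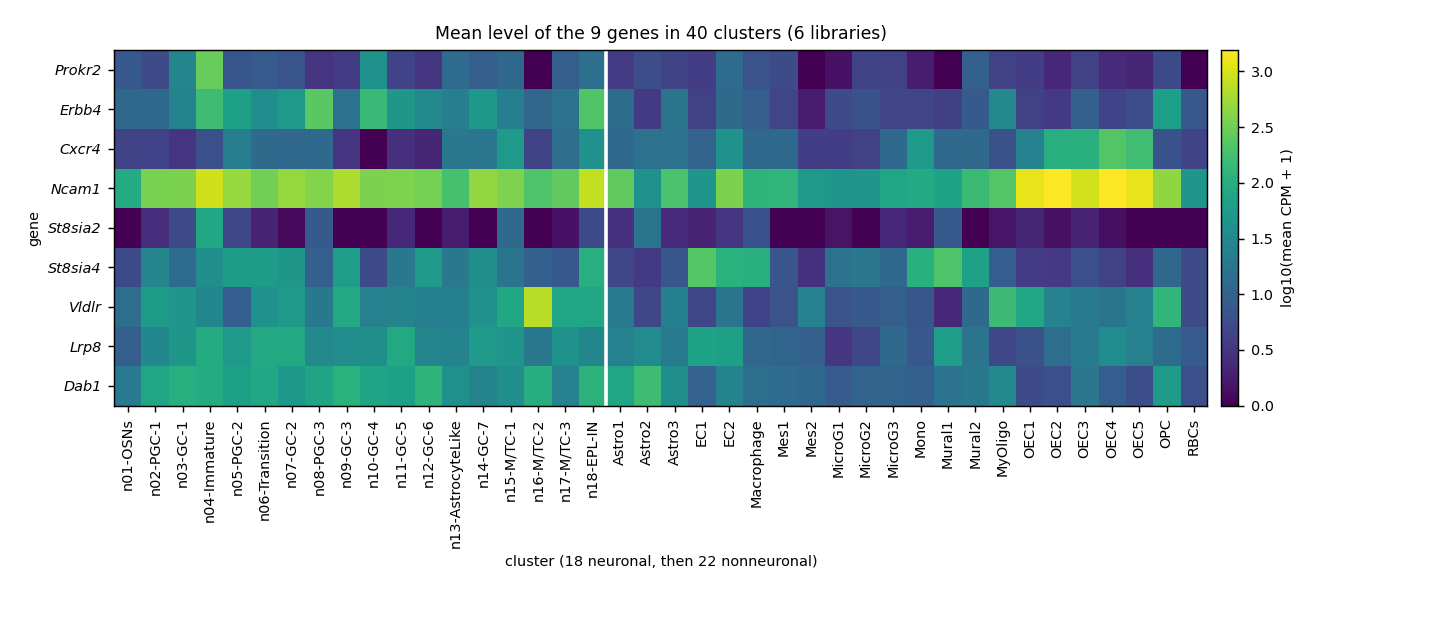
Mean level of each of the 9 genes (vertical axis) in the 40 clusters (horizontal axis, neuronal clusters left of the white line, nonneuronal clusters right of it), as log10 of mean CPM over 6 libraries plus 1. Prokr2, at 283.9 CPM, and St8sia2, at 80.1 CPM, stand out in n04-Immature, whereas Cxcr4 and Ncam1 are highest in OEC4, a cluster of olfactory ensheathing cells (OEC).

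Prokr2, the receptor for prokineticins, was at 283.9 ± 34.1 CPM in n04-Immature. By library it was at 272 and 261 CPM in the controls, 350 and 256 CPM in the naris-occluded libraries, and 285 and 280 CPM in the trained libraries. The first naris-occluded library stood above the other 5, and the naris-occluded range spanned those of the other groups. Both trained values were above both control values, a difference that did not pass the test given below. A Prokr2 UMI was seen in 33.9% of n04-Immature cells (exact 95% interval 32.4 to 35.4%), compared with 0.583% of cells of the olfactory sensory neuron cluster n01-OSNs. Median depths in these clusters were 1668 and 808.5 UMIs, and after thinning every cell to 500 UMIs the shares were 12.6% and 0.333%. These intervals cover counting error only.

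The next clusters for Prokr2 were n10-GC-4, with 43.2 ± 44.1 CPM, and n03-GC-1, with 27.4 ± 15.1 CPM, both clusters of granule cells. In n10-GC-4 the values ran from 0 to 119 CPM and rested on 24 UMIs, 14 of them in the first control library. In n03-GC-1 they ran from 0 to 43.5 CPM on 85 UMIs. No value in either cluster reached the lowest of n04-Immature, whereas n10-GC-4 and n03-GC-1 overlapped each other.

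Prok2, the ligand of this receptor, was all but missing from n04-Immature, at 0.707 ± 0.998 CPM. It was highest in the granule cell cluster n09-GC-3, with 343 ± 115 CPM, followed by the periglomerular cluster n02-PGC-1, with 35.4 ± 9.98 CPM. The lowest library of n09-GC-3 was at 217 CPM, above the highest of n02-PGC-1, at 48.7 CPM. The second ligand gene, Prok1, was seen as 1 UMI in all clustered cells, and the second receptor gene, Prokr1, did not pass 1.73 CPM in any cluster. The highest levels of receptor and ligand RNA were thus in different neuronal clusters, although n10-GC-4, second for Prokr2, also had Prok2, at 20.4 ± 18.7 CPM from 9 UMIs.

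Erbb4, a receptor tyrosine kinase for neuregulins, was at 160 ± 20.2 CPM in n04-Immature, behind 2 other clusters. By library it was at 179.5 and 143 CPM in the controls, 169 and 131 CPM in the naris-occluded libraries, and 182 and 157 CPM in the trained libraries. As for Prokr2, replicate 1, the male pool, was the higher of the 2 in each group. The periglomerular cluster n08-PGC-3 had 238 ± 85.3 CPM, the external plexiform interneuron cluster n18-EPL-IN 211 ± 62.4 CPM and n10-GC-4 144 ± 53.4 CPM, and these 4 clusters overlapped with their neighbours in the order. Oligodendrocyte precursors followed with 63.1 ± 16.6 CPM. Within n08-PGC-3 the second naris-occluded library, with 10 UMIs, was lowest at 105 CPM, and the second trained library, with 12 UMIs, was highest at 369 CPM.

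The neuregulin genes were low throughout. Nrg1 was highest in the mitral and tufted cluster n16-M/TC-2, at 55.3 ± 47.4 CPM from 16 UMIs, and was at 1.29 ± 1.17 CPM in n04-Immature. Nrg2 had its highest means in n15-M/TC-1, 48.7 ± 47.5 CPM from 7 UMIs, and n16-M/TC-2, 29.1 ± 53.4 CPM from 3 UMIs. It was at 25.7 ± 11.3 CPM in n06-Transition and 23.3 ± 6.25 CPM in n07-GC-2, against 5.86 ± 2.40 CPM in n04-Immature. Nrg3 averaged 36.2 ± 47.2 CPM in n15-M/TC-1 from 4 UMIs and 35.9 ± 13.8 CPM in n17-M/TC-3 from 50 UMIs. The mean of Nrg4 did not pass 5.35 CPM in any cluster. Of the other receptors of this family, Erbb3 was highest in OEC1, with 211 ± 21.5 CPM, and Erbb2 was at 1.12 ± 0.998 CPM in n04-Immature.

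Cxcr4, the receptor of Cxcl12, was highest in olfactory ensheathing cells, the glia that wrap the axons of the olfactory nerve. This held for all of their clusters but OEC1, which was below the monocytes. OEC4 had 216 ± 18.8 CPM, OEC5 164 ± 41.0 CPM, OEC3 105 ± 37.1 CPM and OEC2 104 ± 16.5 CPM, and all 5 ensheathing clusters together held 83.6% of the Cxcr4 UMIs in clustered cells against 26.5% of all UMIs. In OEC4 the libraries were at 216 and 249 CPM in the controls, 214 and 218 CPM in the naris-occluded libraries, and 199 and 197 CPM in the trained libraries. Both trained values were below the other 4. OEC4 was above OEC5 in 6 of 6 libraries although their ranges overlapped, and no library of OEC2 was as low as the highest of monocytes, which followed with 52.3 ± 12.95 CPM.

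In n04-Immature Cxcr4 was near the limit of detection, at 4.99 ± 2.09 CPM from 33 UMIs, the 28th of the 40 clusters. A Cxcr4 UMI was seen in 0.818% of its cells (0.560 to 1.153%), and in 0.417% of n01-OSNs cells (0.135 to 0.970%). These intervals overlap, and after thinning to 500 UMIs the shares were 0.230% and 0.0833%, from 9 cells and 1 cell, so expression could not be told from background at this depth. Beside this, the summed level of 6 markers of ensheathing cells in n04-Immature was between 703 and 1241 CPM, with none of them at 0, and their part in the Cxcr4 value was not tested. Cxcl12 was highest in cells of the vessel wall, at 930 ± 135 CPM in the endothelial cluster EC1 and 721 ± 148 CPM in Mural1. Ackr3, the scavenging receptor of Cxcl12, was at 168 ± 53.6 CPM in Mural1 and 168 ± 36.5 CPM in Mural2, and at 4.78 ± 2.48 CPM in n04-Immature.

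Ncam1, the main carrier of polysialic acid, was abundant in 2 kinds of cells. In n04-Immature it was at 907 ± 70.0 CPM, with 889 and 831 CPM in the controls, 996 and 894 CPM in the naris-occluded libraries, and 845 and 987 CPM in the trained libraries. It was higher still in the ensheathing cells, with 1559.5 ± 131 CPM in OEC4, 1549.6 ± 112 CPM in OEC2, 1227 ± 121 CPM in OEC5, 1196 ± 89.4 CPM in OEC1 and 938 ± 160 CPM in OEC3. OEC4 and OEC2 did not differ beyond their spread, and neither did OEC3 and n04-Immature. Among neurons, n18-EPL-IN followed with 785 ± 242 CPM, below n04-Immature in 4 of 6 libraries, and over cells with at least 1000 UMIs n04-Immature was no longer the highest neuronal cluster. A UMI of Ncam1 was seen in 66.8% of n04-Immature cells, 88.2% of OEC4 cells and 7.25% of n01-OSNs cells, or 33.7%, 49.9% and 4.42% after thinning.

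The paralog Ncam2 was also highest in ensheathing cells, at 91.4 ± 13.1 CPM in OEC2, and was at 22.3 ± 4.69 CPM in n04-Immature. Ensheathing cells held 61.8% of all Ncam1 UMIs in clustered cells and n04-Immature 12.3%. The counts do not show whether the protein carried polysialic acid.

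St8sia2, a polysialyltransferase known from the developing brain, was at 80.1 ± 7.52 CPM in n04-Immature. Its libraries were at 80.2 and 67.9 CPM in the controls, 86.4 and 88.9 CPM in the naris-occluded group, and 81.1 and 76.1 CPM in the trained group. Both naris-occluded values were above the other 4, a difference that did not pass the test given below. No other cluster had a mean above 15.8 CPM, that of Astro2, which rested on 11 UMIs. A single UMI in the sparse cluster n15-M/TC-1 put 1 of its libraries at 69.3 CPM, inside the range of n04-Immature, and its other 5 libraries were at 0. In n01-OSNs 0 of 1200 cells had a UMI. By a rule of 3 counts, not the exact interval used for Prokr2, this allows a share of cells with a UMI of up to 0.250% (3 cells of 1200). It does not limit the share of cells with the transcript. In n04-Immature 12.5% of cells had a UMI, or 3.43% after thinning.

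St8sia4, the other polysialyltransferase, had a different distribution. It was highest in EC1, with 223 ± 13.9 CPM, and in Mural1, with 202 ± 31.4 CPM, followed by EC2 with 109 ± 11.7 CPM, monocytes with 105 ± 25.6 CPM, n18-EPL-IN with 100.4 ± 80.8 CPM and macrophages with 100.3 ± 6.46 CPM. The mean of n18-EPL-IN, the highest neuronal cluster for this gene, came from 16 UMIs, and its libraries ran from 0 to 190 CPM. Endothelial, mural and mesenchymal clusters held 49.6% of its UMIs against 11.6% of all UMIs. In EC1 the libraries were at 224 and 206 CPM in the controls, 230.4 and 206 CPM in the naris-occluded group, and 228 and 241 CPM in the trained group. The naris-occluded range overlapped with those of the other groups. Both trained values were above both control values, a difference that did not pass the test given below.

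In n04-Immature St8sia4 was at 38.1 ± 9.79 CPM, the 14th of 40 clusters, with 33.1 and 46.1 CPM in the controls, 35.9 and 21.9 CPM in the naris-occluded libraries, and 44.4 and 47.1 CPM in the trained libraries. Of the 3910 cells, 487 had a St8sia2 UMI, 236 had a St8sia4 UMI and 33 had both. At this depth a cell without a UMI cannot be told from a cell without the transcript. A further gene of the family on the list, St8sia3, was highest in n18-EPL-IN, at 175 ± 68.5 CPM, and was at 41.2 ± 5.80 CPM in n04-Immature.

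**Figure D2:**
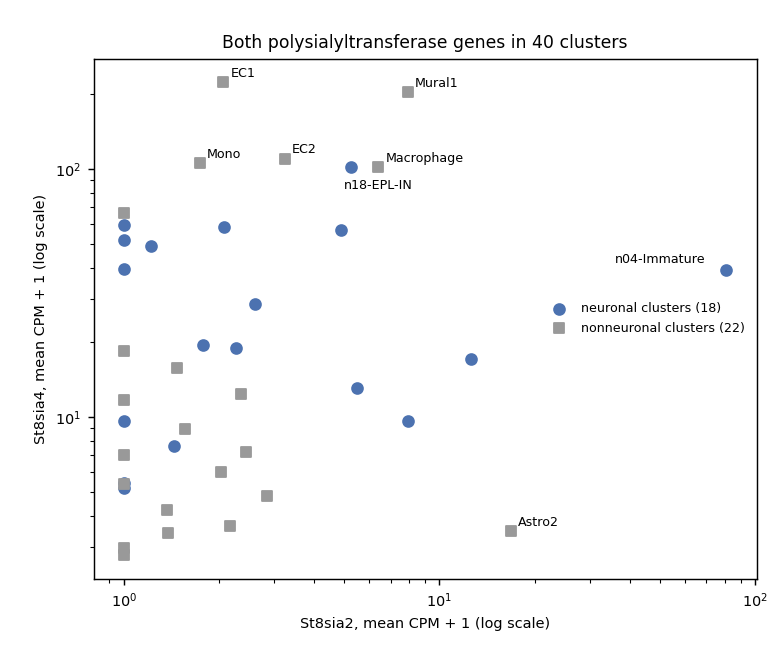
Mean CPM plus 1 of St8sia2 (horizontal log axis) against St8sia4 (vertical log axis) in the 18 neuronal clusters (circles) and 22 nonneuronal clusters (squares), each point the mean of 6 libraries. n04-Immature is alone at the right, with 80.1 CPM of St8sia2 and 38.1 CPM of St8sia4, and EC1 is at the top, with 223 CPM of St8sia4.

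Vldlr, 1 of the 2 reelin receptors, was highest in n16-M/TC-2, with 733 ± 279 CPM. Its 116 cells gave 175 Vldlr UMIs, and the libraries were at 785 and 429 CPM in the controls, 824 and 1200.4 CPM in the naris-occluded libraries, and 480 and 682 CPM in the trained libraries, the last from 5 UMIs. Myelinating oligodendrocytes followed with 153 ± 15.3 CPM, below every library of n16-M/TC-2, and oligodendrocyte precursors with 125 ± 18.4 CPM. In n04-Immature Vldlr was at 28.3 ± 6.07 CPM, with 24.0 and 23.1 CPM in the controls, 23.9 and 35.7 CPM in the naris-occluded libraries, and 27.0 and 36.2 CPM in the trained libraries. Vldlr was seen in 4.68% of n04-Immature cells and in 1.08% of n01-OSNs cells, or 1.38% and 0.667% after thinning.

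Lrp8, the other reelin receptor, was at 90.2 ± 17.7 CPM in n04-Immature. The libraries were at 85.2 and 90.9 CPM in the controls, 72.7 and 83.0 CPM in the naris-occluded group, and 85.0 and 124 CPM in the trained group. The second trained library stood above the other 5. The next clusters, n07-GC-2 with 87.3 ± 16.4 CPM, n11-GC-5 with 85.0 ± 11.8 CPM and n06-Transition with 83.8 ± 20.6 CPM, could not be separated from n04-Immature. With mitochondrially encoded genes left out of the total, the highest neuronal mean of Lrp8 was no longer in n04-Immature, and the same held without the first control library, for the mean CPM of single cells and for the thinned share of cells. EC1 was the highest nonneuronal cluster, with 70.6 ± 17.2 CPM.

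Dab1, the cytoplasmic adaptor of both receptors, was highest in Astro2, with 157 ± 46.9 CPM, and was spread over the neurons. It was at 118 ± 28.8 CPM in n12-GC-6, 111 ± 40.6 CPM in n18-EPL-IN and 109 ± 45.8 CPM in n09-GC-3. Below these came n03-GC-1, where Dab1 averaged 102 ± 19.9 CPM, n16-M/TC-2, where it averaged 96.9 ± 38.6 CPM, and n04-Immature, where it averaged 92.2 ± 14.3 CPM, and the ranges of neighbours in this order overlapped. In n04-Immature it was at 115 and 83.3 CPM in the controls, 101 and 78.7 CPM in the naris-occluded libraries, and 95.6 and 79.7 CPM in the trained libraries. As with Prokr2 and Erbb4, replicate 1 was the higher of the 2 in each group. How many of all genes had this order was not counted.

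The ligand Reln was highest in cells other than these. The mitral and tufted cluster n17-M/TC-3 had the most, 1436 ± 138 CPM. Next came n15-M/TC-1, where Reln averaged 708 ± 156 CPM, and n08-PGC-3, where it averaged 671 ± 80.9 CPM. In n04-Immature it was at 10.9 ± 3.15 CPM. Fyn, a kinase known to phosphorylate Dab1, was at 116 ± 8.48 CPM in n04-Immature and 894 ± 245 CPM in oligodendrocyte precursors.

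Over the 40 clusters, the genes with the pattern most like each of the 9 were found by Pearson's r of log2(mean CPM + 10) among 9215 other genes that reached 50 CPM in a cluster. These are correlations across clusters that share libraries, and they carry no p. Prokr2 was most like Mex3a (r = 0.818), Sox11 (0.793) and Igfbpl1 (0.760), the last 2 of them listed as markers of immature neurons. St8sia2 was most like Islr2 (0.785), Mex3a (0.759) and Prokr2 (0.716), the only case in which 1 of the 9 genes was among the 3 closest of another. Cxcr4 was most like Mybpc1 (0.902), Prss56 (0.897) and Ccdc80 (0.894), and Mybpc1 was listed as a marker of ensheathing cells. Dab1 was most like Gnao1 (0.900).

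The closest gene to Erbb4 was Dscam (0.839), to Ncam1 9330159F19Rik (0.861), to Vldlr Bace1 (0.812), to Lrp8 Palm (0.803) and to St8sia4 Cyp2e1 (0.735). Among the pairs of the 9 genes, the highest r was that of Prokr2 and St8sia2 and the lowest that of Cxcr4 and Dab1 (-0.390). Vldlr and Lrp8, which bind the same ligand, had an r of 0.0661, and St8sia2 and St8sia4, which add the same sugar, had an r of 0.146.

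The study placed n04-Immature at the start of a branched order of adult-born neurons, which parts into 2 branches. Axis A takes in 8 clusters, the periglomerular clusters n02, n05 and n08 and the granule cell clusters n03, n10, n11, n12 and n14. Axis B takes in 3, n09-GC-3, n07-GC-2 and n06-Transition. For each gene the pooled clusters of an axis were set against n04-Immature as a difference of log2(CPM + 1) in each library. On axis A Prokr2 was lower by 4.61 ± 0.68 and on axis B by 5.37 ± 0.45, from 283.9 CPM to 11.6 and 6.05 CPM. St8sia2 was lower by 4.60 ± 0.48 and 5.82 ± 0.69, down to 2.46 and 0.523 CPM. Both genes were lower in 6 of 6 libraries on both axes, but the size depends on the pseudocount. With 10 CPM in place of 1 the differences were -3.80 and -4.20 for Prokr2 and -2.85 and -3.10 for St8sia2.

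For Erbb4 the pooled level lay below that of n04-Immature in 6 of 6 libraries for both axes. The gap was 1.72 ± 0.19 for axis A and 1.86 ± 0.29 for axis B. Not every axis A cluster was lower. Erbb4 averaged 238 CPM in n08-PGC-3 (105 to 369 CPM by library), against 160 CPM in n04-Immature (131 to 182 CPM). In n10-GC-4 its libraries, at 75.1 to 214 CPM, overlapped with n04-Immature. Libraries of the other axis A clusters reached at most 96.2 CPM. The pooled level of Ncam1 was lower by 1.25 ± 0.03 and 1.02 ± 0.11, also in 6 of 6 libraries. Ncam1 thus remained at 381 ± 34.6 CPM on axis A and 448 ± 55.6 CPM on axis B where St8sia2 was near 0. The 2 polysialyltransferases did not follow each other. St8sia4 went from 38.1 CPM in n04-Immature to 23.8 ± 3.71 CPM on axis A, lower in 5 of 6 libraries, and to 51.8 ± 7.24 CPM on axis B, higher in 6 of 6 libraries.

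The reelin receptors also differed. Lrp8 was lower on axis A by 0.72 ± 0.16 in 6 of 6 libraries and by 0.14 ± 0.21 on axis B, within the spread between libraries, a difference that became -0.50 in cells with at least 1000 UMIs. Vldlr was higher on axis B by 0.82 ± 0.28 in 6 of 6 libraries, and by 0.31 ± 0.43 on axis A, within the spread. Dab1 was lower by 0.56 ± 0.43 on axis B in 6 of 6 libraries and by 0.25 ± 0.21 on axis A in 5 of 6. These are pooled levels. The Dab1 means of n12-GC-6 and n03-GC-1 on axis A and of n09-GC-3 on axis B, given above, were higher than that of n04-Immature. For Cxcr4 the level was too low on both sides to read a difference, with 4.56 ± 2.08 CPM on axis A and 9.85 ± 8.77 CPM on axis B. The largest axis B clusters, n06-Transition and n07-GC-2, were shallow, with medians of 730 and 882 UMIs against 1668 in n04-Immature, and had medians of 15.2% and 17.4% mitochondrial UMIs against 8.44%, and the part of this in the differences was not tested.

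**Figure D3:**
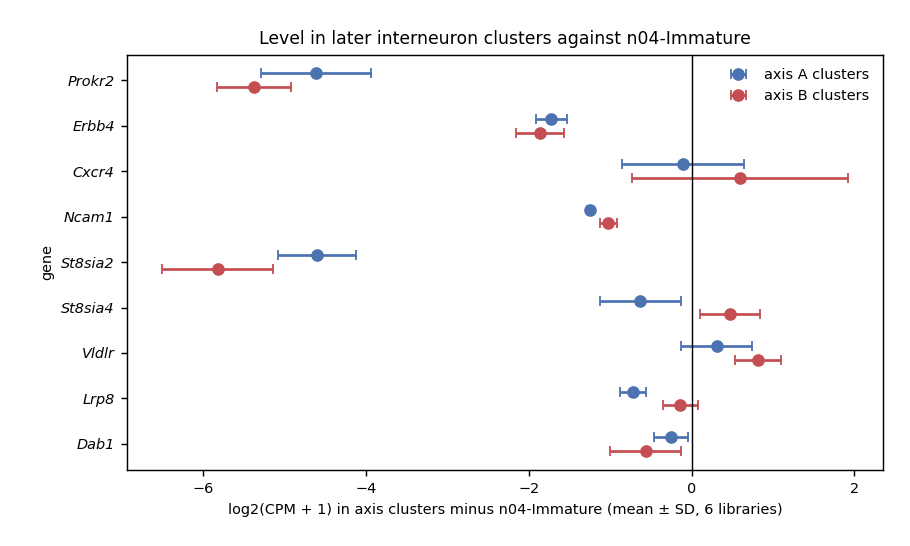
Difference of log2(CPM + 1) between the pooled clusters of axis A or axis B and n04-Immature (horizontal axis) for each gene (vertical axis), as the mean and SD over 6 libraries. Prokr2 and St8sia2 lie farthest left, at -4.61 and -4.60 on axis A and at -5.37 and -5.82 on axis B, while Vldlr and St8sia4 lie right of 0 on axis B, at 0.82 and 0.47.

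Of the 9 genes, 5 were lower on axis A in 6 of 6 libraries and 0 higher, with a median difference of -0.72, and on axis B 5 were lower and 2 higher, with a median of -0.56. Over the 8406 genes with at least 10 CPM in n04-Immature the medians were 0.02 and -0.05. Of these genes 27.5% were lower and 30.6% higher on axis A in 6 of 6 libraries, and 34.7% were lower and 31.8% higher on axis B, the shares against which the counts for each list are to be read. Some list members, among them Cxcr4, were under 10 CPM and so are not in that background. Among 20 other genes known for neuroblast migration, 11 were lower and 6 higher on axis A in 6 of 6 libraries, and 9 were lower and 6 higher on axis B. Dcx, which encodes the microtubule protein doublecortin, was lower by 1.88 ± 0.24 and 1.41 ± 0.27, Robo2, a receptor for Slit proteins, by 1.79 ± 0.11 and 1.58 ± 0.14, and Cd24a, a surface glycoprotein of young neurons, by 2.97 ± 0.29 and 5.63 ± 0.31. Among those that were higher, Tnr differed by 2.05 ± 0.33 and 2.88 ± 0.40, and Robo1 by 1.20 ± 0.39 and 0.84 ± 0.67.

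Of the 12 genes of polysialic acid synthesis, carriers and removal, 4 were lower and 2 higher on axis A, and 4 lower and 4 higher on axis B. Nans, an enzyme of sialic acid synthesis, was lower by 1.45 ± 0.32 and 2.88 ± 0.83, while Neu1, a lysosomal sialidase, was higher by 0.68 ± 0.40 and 1.37 ± 0.28. Of the 18 genes of the reelin pathway, 4 were lower and 3 higher on axis A, and 5 lower and 2 higher on axis B. Of the 10 ErbB and neuregulin genes, Erbb4 was the 1 that was lower, on both axes, whereas 4 were higher on axis A and 5 on axis B, mostly from values under 10 CPM in n04-Immature. Of the 4 prokineticin genes, Prokr2 was lower and Prok2 higher, by 2.80 ± 0.89 and 4.16 ± 0.96, while Prok1 and Prokr1 had no UMI on either side. Prok2 was at 0.707 CPM from 4 UMIs in n04-Immature, so the size of its difference depends on the pseudocount. Its pooled level on axis B was 28.5 CPM, with 343 CPM in n09-GC-3. In n06-Transition and n07-GC-2 it was below the 20.4 CPM of n10-GC-4. Of the 3 Cxcl12 genes, Cxcl12 itself was higher by 1.48 ± 0.40 and 2.08 ± 0.69, and Ackr3 was lower on axis B by 0.75 ± 0.48, so that 1 was higher and 0 lower on axis A and 1 higher and 1 lower on axis B. The Ackr3 levels, 4.78 CPM in n04-Immature and 2.28 CPM on axis B, were low, as for Cxcr4, so its place in this count is uncertain.

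Olfactory experience was examined next, with the libraries as replicates and edgeR's quasi-likelihood test on UMIs summed per library, adjusted with the Benjamini-Hochberg method over all genes tested in a cluster. In n04-Immature 8 of the 9 genes passed the filter on low counts, all but Cxcr4. Between naris-occluded and control libraries 0 of the 8 passed an adjusted p of 0.05, against 0.107% of the 9312 genes tested. Between trained and control libraries, a comparison that shares the control libraries with the first, 0 of the 8 passed, against 0% of all genes. Between trained and naris-occluded libraries 0 of the 8 passed, against 0.0107% of all genes. At an unadjusted p under 0.05 the counts were 0, 0 and 2 of 8, where 4.40%, 5.25% and 6.65% of all genes were under it, and DESeq2 also called 0 of the 8 in each comparison.

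The 2 genes in the last count were St8sia4 and Lrp8, both higher in the trained than in the naris-occluded libraries. St8sia4 differed by a log2 fold change of 0.70 (95% interval 0.16 to 1.24, edgeR adjusted p = 0.650). Leaving out 1 library at a time gave values from 0.40, without the second naris-occluded library, to 1.05, without the first. Its 2 trained values, 44.4 and 47.1 CPM, were above both naris-occluded values, 35.9 and 21.9 CPM, and the control values, 33.1 and 46.1 CPM, overlapped both groups. Lrp8 differed by 0.44 (0.06 to 0.82, edgeR adjusted p = 0.709), and without the second trained library by 0.14. Neither difference passed the adjusted threshold.

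For Prokr2 the log2 fold change was 0.15 (-0.13 to 0.43) between naris-occluded and control libraries and 0.08 (-0.21 to 0.36) between trained and control libraries, and the sign of the first turned without the first naris-occluded library, to -0.06. St8sia2 differed by 0.21 (-0.13 to 0.55) and 0.06 (-0.29 to 0.42) in these comparisons, Ncam1 by 0.11 (-0.14 to 0.36) and 0.09 (-0.16 to 0.33), and Erbb4 by -0.15 (-0.47 to 0.18) and 0.05 (-0.28 to 0.37). The intervals for Prokr2 and Ncam1 thus exclude a change by 1 on the log2 scale in either direction, while that of St8sia4 between naris-occluded and control libraries, -0.46 (-1.03 to 0.11), and that of Vldlr between trained and control libraries, 0.42 (-0.19 to 1.04), do not. For n04-Immature, simulated counts in which 200 genes differed by a factor of 2 gave a call for 55.0% of those genes, and 10.6% of all calls were false. The false share was above the threshold of 0.05. The 200 were drawn at random from all genes tested, with no difference by sex. The 55.0% is therefore not the share to be expected for the genes named here.

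**Figure D4:**
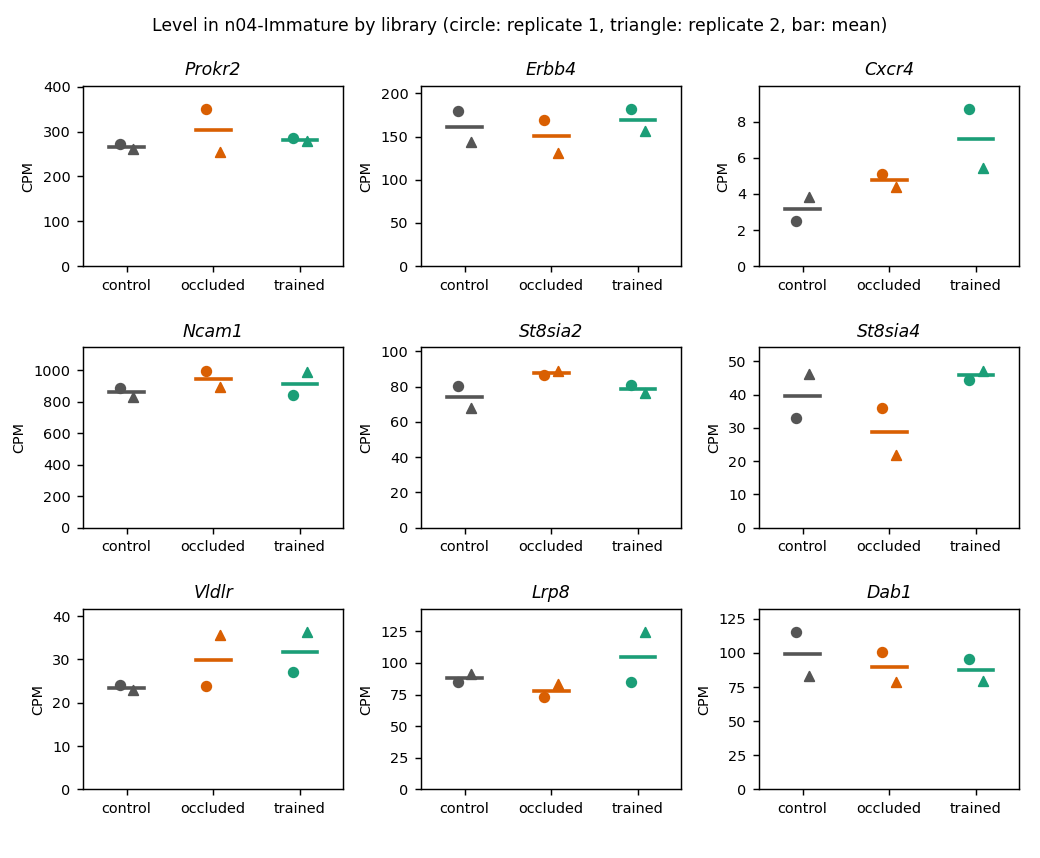
Level in n04-Immature (vertical axis, CPM) of each gene in the control, naris-occluded and trained libraries, with replicate 1 as a circle, replicate 2 as a triangle and the group mean as a bar. Prokr2 sits between 256 and 350 CPM in all 6 libraries, and the 2 trained libraries of St8sia4, at 44.4 and 47.1 CPM, are above the 2 naris-occluded libraries, at 35.9 and 21.9 CPM.

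**Figure D5:**
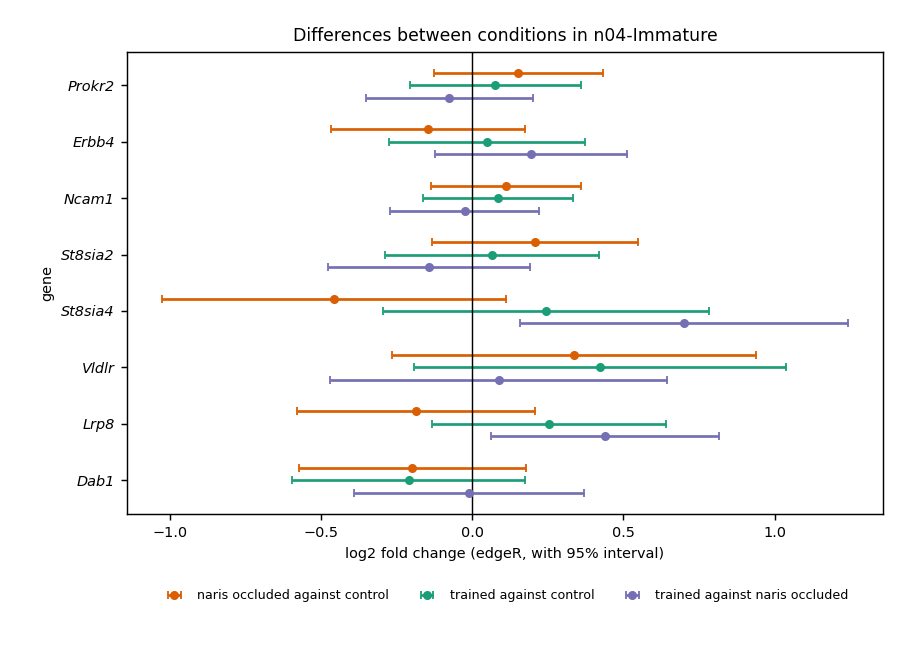
Log2 fold change in n04-Immature (horizontal axis, edgeR, with 95% interval) of the 8 genes tested, for the 3 comparisons between conditions. The intervals of 2 comparisons do not reach 0, those of St8sia4 and Lrp8 between trained and naris-occluded libraries, and neither passed after adjustment.

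The cells labelled n04-Immature differed between libraries in other ways. The summed level of 5 markers of cycling cells was 36.8 and 40.8 CPM in the naris-occluded libraries, 114 and 170 CPM in the controls and 95.6 and 84.2 CPM in the trained libraries, with none of the 5 at 0. The summed level of 5 markers of olfactory sensory neurons was 549.9 and 557 CPM in the naris-occluded libraries, 1156 and 1098 CPM in the controls, and 1391 and 577 CPM in the trained libraries. That of the 6 ensheathing cell markers was 1041 and 1241 CPM, 840 and 806 CPM, and 830 and 703 CPM in the same order. Their part in the values of the 9 genes was not tested.

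In the related lists 0 genes passed in n04-Immature in any of the 3 comparisons. Of the 18 reelin pathway genes 17 were tested, of the 12 polysialic acid genes 10, of the 20 other migration genes 14, of the 10 ErbB and neuregulin genes 2, of the 4 prokineticin genes 1 and of the 3 Cxcl12 genes 0. At an unadjusted p under 0.05 there were 1, 1 and 0 of the other migration genes in the 3 comparisons in the order above, and 1 each of the reelin and polysialic acid genes in the third, Lrp8 and St8sia4. The median log2 fold change of the 8 tested genes was -0.02, 0.08 and 0.04.

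In the other 33 clusters with at least 20 cells in every library, the 9 genes gave 101 tests in each comparison. Prokr2 could be tested in 2 of the 34 clusters and St8sia2 in 1, against 32 for Ncam1 and 8 for Cxcr4. With edgeR 0 of 101 passed between naris-occluded and control libraries, where 0.0599% of all tests passed, 0 of 101 between trained and control libraries (0.0984% of all tests), and 0 of 101 between trained and naris-occluded libraries (0.188%). At an unadjusted p under 0.05 the counts were 5, 9 and 12, or 4.95%, 8.91% and 11.9% of the 101 tests, beside 4.7998%, 5.77% and 7.29% of all tests in these clusters, and DESeq2 called 0 of the 101 in each. The tests of 1 gene in related clusters share their libraries and are not independent.

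The lowest unadjusted p-values among these tests were those of Ncam1 in OEC3 and Lrp8 in EC1. OEC3 was shallow, with medians of 817 UMIs and 18.6% mitochondrial UMIs. There 666 of 6498 genes had an unadjusted edgeR p under 0.05 between trained and naris-occluded libraries. Ncam1 in OEC3 was at 891 and 938 CPM in the controls, 1037 and 1194 CPM in the naris-occluded libraries, and 750.1 and 815.5 CPM in the trained libraries. The 3 groups did not overlap for Ncam1, and for how many other genes this held was not counted. The difference of trained against naris-occluded libraries was -0.45 (-0.73 to -0.18, edgeR adjusted p = 0.159), and without the first naris-occluded library it was -0.52, with an adjusted p of 0.0209. Cxcr4 in OEC3 was at 135 and 98.4 CPM in the controls, 80.2 and 164 CPM in the naris-occluded libraries, and 82.8 and 68.4 CPM in the trained libraries. Its difference of trained against naris-occluded libraries was -0.60 (-1.12 to -0.09, adjusted p = 0.385), and -0.999 without the first naris-occluded library, with an adjusted p of 0.0172. These calls rest on the 1 naris-occluded library that is left, which is assumed to vary like the other groups, and neither was made with both.

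Against the controls, Cxcr4 in trained libraries differed by -0.59 (-1.10 to -0.08) in OEC3, -0.25 (-0.50 to -0.0028) in OEC4 and -0.59 (-1.06 to -0.11) in OEC5, with edgeR adjusted p-values of 0.644, 0.815 and 0.595. In the other ensheathing clusters the differences were 0.11 (-0.63 to 0.86) in OEC1 and -0.27 (-0.69 to 0.14) in OEC2, so none of the 5 passed. Lrp8 in EC1 was at 58.5 and 59.3 CPM in the controls, 68.6 and 53.5 CPM in the naris-occluded libraries, and 93.5 and 90.03 CPM in the trained libraries. Both trained libraries were above the other 4, with a log2 fold change against the controls of 0.66 (0.25 to 1.07, edgeR adjusted p = 0.210).

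St8sia4 in the dopaminergic periglomerular cluster n05-PGC-2 was at 26.7 and 22.5 CPM in the controls, 27.5 and 152 CPM in the naris-occluded libraries, and 37.1 and 67.8 CPM in the trained libraries. The high value came from 23 UMIs in the second naris-occluded library. The difference of naris-occluded against control libraries was 1.83 (0.52 to 3.14, edgeR adjusted p = 0.998) with both libraries and 2.56, with an adjusted p of 0.00458, without the first. The latter value rests on the 1 library with the 23 UMIs, whose spread is assumed from the other groups.

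The clusters in which Erbb4 and Vldlr were highest had fewer than 20 cells in a library and were tested in addition, after the data had been seen. In n08-PGC-3 Erbb4 differed by -0.57 (-1.32 to 0.18) between naris-occluded and control libraries and by 0.11 (-0.64 to 0.86) between trained and control libraries. In n16-M/TC-2 Vldlr differed by 0.74 (0.02 to 1.47, edgeR adjusted p = 0.818) between naris-occluded and control libraries and by -0.87 (-1.71 to -0.02, adjusted p = 0.601) between trained and naris-occluded libraries. Ncam1 was the 1 other member of the 9 tested in these clusters, and 0 of the 2 genes tested in each passed. Of the 2042 genes tested in n08-PGC-3, 2, 1 and 3 passed in the 3 comparisons, and of the 921 tested in n16-M/TC-2, 6, 0 and 3.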

How the data were processed

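RNA was measured in 6 libraries of mouse olfactory bulb cells. The authors captured cells with droplet chemistry and deposited unnormalized UMI counts per gene and barcode in 1 table; the submitters' processing notes name Cell Ranger 2.0.0, Seurat 2.2.1 and the mm10 build. The authors removed doublets while clustering, and no further filter on cells was applied here. The deposited annotations gave library and cluster for 51426 of 52549 barcodes, and 50671 in 40 clusters were used; names of the trained libraries' cells disagree with the library column, which was followed. Counts were summed per cluster and library. Comparisons used edgeR 4.0.16 (R 4.3.3) with TMM factors, its filter on low counts, all 6 libraries and a threshold of 0.05, in the 34 clusters with at least 20 cells per library; DESeq2 1.42.0 was an alternative. The test was tried on simulated data with 200 changed genes. By their labels the libraries come from separate pools, and p-values then measure the spread between 2 pools per group. If the controls were the open side of occluded mice, control and naris-occluded libraries would be paired. The main test does not model such a pairing. Mouse sex equals replicate number in every group.

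The 9 genes, the related gene lists and the tests were chosen with earlier results of these data known. Genes named are the 9, their ligands and partners, the sex-linked genes, genes most like each of the 9 by correlation over clusters (up to 3 each, with 1 not reported here), and examples from the related lists, chosen after their values were seen. The alternatives were a replicate block, other size factors, DESeq2, no filter, only the libraries compared, cells with at least 1000 UMIs, other totals, pseudocounts and summaries, and each library left out in turn. Gene positions and promoter sequences are from RefSeq (GRCm38.p6).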

Additional observations from a re-analysis of the deposited data

Results flagged for a closer look

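In 3 of the 15 levels examined, 1 library lay farther from the other 5 than Dixon's 95% critical value allows, where chance passes about 1 in 20 such tests and the 6 libraries come from 3 groups. These were Prokr2 in n04-Immature, at 349.8 CPM in the first naris-occluded library against 256 to 285 CPM in the others, Ncam1 in OEC4, at 1815.6 CPM in the same library against 1450.2 to 1566 CPM, and Lrp8 in n04-Immature, at 124 CPM in the second trained library against 72.7 to 90.9 CPM.

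The barcodes outside the 40 clusters also held UMIs of all 9 genes. In the 1123 barcodes without a cluster, Ncam1 was at 690.5 CPM, Cxcr4 at 58.0 CPM, Lrp8 at 53.6 CPM, Dab1 at 44.7 CPM, Vldlr at 37.1 CPM, Erbb4 at 27.8 CPM, Prokr2 and St8sia4 at 24.5 CPM each and St8sia2 at 5.30 CPM. In the 755 neurons that the study left out of its neuron annotation, Ncam1 was at 648 CPM, Lrp8 at 120.3 CPM, St8sia4 at 107 CPM, Dab1 at 67.4 CPM, Vldlr at 63.7 CPM, Erbb4 at 58.7 CPM, Prokr2 at 46.3 CPM, Cxcr4 at 41.8 CPM and St8sia2 at 9.51 CPM. In both sets Prokr2 and St8sia2 were far below their levels in n04-Immature, while Cxcr4 and Vldlr were above theirs. In the 755 neurons Lrp8 and St8sia4 were also above their n04-Immature means, 90.2 and 38.1 CPM. No difference between the groups was tested in these barcodes.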

How the results depend on the processing

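The counts of genes called stayed at 0 in n04-Immature in all 3 comparisons and under every alternative. In the other clusters they stayed at 0 except without the first naris-occluded library, where 1 gene was called between naris-occluded and control libraries and 2 between trained and naris-occluded libraries, ranges of 0 to 1 and 0 to 2. In that setting the calls over all genes in the 34 clusters also rose, from 108 to 292 and from 308 to 692. Leaving out any other library also raised those calls in 1 or both of these comparisons. The rise was thus not particular to that setting, and its cause was not tested. With the replicate number as a replicate block, 0 of the 9 genes were called in any cluster or comparison, while the calls over all genes in n04-Immature went from 10, 0 and 1 to 17, 2 and 8. Those calls were 36, 6 and 28 with no filter on low counts, 23, 0 and 0 with only the libraries compared, 6, 0 and 2 with DESeq2, and 13, 1 and 4 in cells with at least 1000 UMIs. Without the first trained library they were 34, 16 and 26, without the second 33, 17 and 55. Without the first naris-occluded library they were 7, 0 and 4, without the second 3, 0 and 0, without the first control library 6, 0 and 1, and without the second 7, 0 and 1. Deviations of libraries with the same number correlated at 0.174, 0.187 and 0.137 in n04-Immature, with medians over 34 clusters of 0.0983, 0.0980 and 0.0644, and the number is also the sex. In MicroG3, where 1 correlation was -0.279, crossing the numbers gave 0 calls and the numbered pairing 3. The number of the 9 genes highest in n04-Immature among neurons was 3 or 4.

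Fold changes in n04-Immature are small, and some turned sign when 1 library was left out. Between naris-occluded and control libraries the ranges were -0.056 to 0.34 for Prokr2, -0.31 to 0.027 for Erbb4, -0.029 to 0.60 for Vldlr, -0.81 to -0.15 for St8sia4, which kept its sign, and -0.38 to 0.068 for Dab1. Between trained and control libraries they were -0.083 to 0.22 for Erbb4, -0.025 to 0.18 for Ncam1, -0.027 to 0.19 for St8sia2, -0.025 to 0.47 for St8sia4, -0.043 to 0.49 for Lrp8 and -0.39 to 0.057 for Dab1. Between trained and naris-occluded libraries they were -0.26 to 0.13 for Prokr2, -0.14 to 0.077 for Ncam1, -0.19 to 0.45 for Vldlr and -0.16 to 0.14 for Dab1. Between trained and naris-occluded libraries Ncam1 also turned, to 0.0048, in cells with at least 1000 UMIs. The other 167 values under the alternatives other than leaving out 1 library kept their sign. The 18 differences between the axes and n04-Immature gave 90 values under these alternatives. Of these values 7, from 6 of the 18 differences, moved by more than the SD. With 2 libraries a group, depth limits the rarer genes most: Cxcr4, with 33 UMIs in n04-Immature, was not tested there.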
